A study of Mus musculus with 18 samples.

Results

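The 9 genes described here are used to recognise a mouse macrophage. They are the lineage transcription factor genes *Spi1* and *Maf*, the growth factor receptor gene *Csf1r*, the adhesion receptor genes *Adgre1* and *Adgre4*, the Fc receptor gene *Fcgr1*, the apoptotic cell receptor gene *Mertk*, the lipopolysaccharide (LPS) co-receptor gene *Cd14* and the lysozyme gene *Lyz2*. They were chosen by gene symbol from the 55385 genes in the count table. Each symbol matched 1 Ensembl gene, and all 9 were among the 14979 genes that passed the filter of 10 or more counts in 2 or more libraries.

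Bone marrow-derived macrophages (BMDM) came from female C57BL/6J mice aged 12 weeks and were grown to day 7 in medium with L-929 cell supernatant, which supplies CSF-1. The 3 treatments, given for 24 h, were vehicle (Veh, DMSO at 0.1%), HC3 at 250 µM and RSM-932a (RSM) at 5 µM. For the next 24 h the cells of each treatment either stayed naïve, written M[0], or received IL-4 at 20 ng/mL, written M[IL-4], which makes 6 groups. HC3 is hemicholinium-3, an inhibitor of choline uptake, and RSM inhibits choline kinase, the enzyme that phosphorylates choline for phosphatidylcholine synthesis. Each group had 3 libraries, and the labels name 3 mice as the source of the samples without tying a replicate number to a mouse. The cultures are thus marrow progenitors of 1 strain and 1 sex matured outside the animal, and each library is a bulk RNA sample of such a culture. Libraries held 17457796 to 19522255 counts, and the share of counts on mitochondrial genes was 2.50 to 3.45% with HC3, 1.68 to 2.21% with Veh and 0.665 to 0.829% with RSM.

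Macrophage identity is set by a small set of transcription factors. PU.1, the protein of *Spi1*, is an ETS factor that binds purine-rich sites in the promoters and enhancers of many myeloid genes, *Csf1r* among them. CSF-1 or IL-34 acting through CSF1R keeps macrophages alive, and the mature cell carries receptors for antibody, apoptotic cells and microbial products, along with the secreted enzyme lysozyme. Alternative activation by IL-4 acts through STAT6 and is laid over this program.

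The promoter table matched 4 of the 9 genes and *Lyz1*, the neighbouring paralog of *Lyz2*, but not *Csf1r*, *Spi1*, *Adgre1*, *Cd14* or *Maf*. The sequences are shown because the product of 1 of the genes, PU.1, has a known core site, here searched as AGGAAGT on both strands. Each run covers the 200 bases from 250 to 51 bases before the RefSeq start (GRCm38.p6), 5′ to 3′ on the gene's strand, and capitals mark the motif or its reverse complement ACTTCCT.
Fcgr1 (chr3:96294020-96294219, minus strand): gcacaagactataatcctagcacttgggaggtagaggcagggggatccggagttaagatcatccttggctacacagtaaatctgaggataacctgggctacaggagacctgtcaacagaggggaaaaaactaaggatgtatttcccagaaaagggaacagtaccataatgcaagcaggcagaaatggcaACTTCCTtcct
Lyz2 (chr10:117282323-117282522, minus strand): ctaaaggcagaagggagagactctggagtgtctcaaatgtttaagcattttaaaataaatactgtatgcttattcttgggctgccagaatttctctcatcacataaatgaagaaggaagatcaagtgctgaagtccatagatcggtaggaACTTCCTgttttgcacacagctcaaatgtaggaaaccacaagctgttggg
Lyz1 (chr10:117292919-117293118, minus strand): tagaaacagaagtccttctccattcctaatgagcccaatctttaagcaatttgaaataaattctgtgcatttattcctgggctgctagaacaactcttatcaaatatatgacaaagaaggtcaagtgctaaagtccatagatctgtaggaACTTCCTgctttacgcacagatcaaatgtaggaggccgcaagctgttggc
Mertk (chr2:128698665-128698864, plus strand): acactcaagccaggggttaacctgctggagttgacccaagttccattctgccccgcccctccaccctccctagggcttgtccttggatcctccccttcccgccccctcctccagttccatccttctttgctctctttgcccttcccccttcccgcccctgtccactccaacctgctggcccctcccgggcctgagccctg
Adgre4 (chr17:55749734-55749933, plus strand): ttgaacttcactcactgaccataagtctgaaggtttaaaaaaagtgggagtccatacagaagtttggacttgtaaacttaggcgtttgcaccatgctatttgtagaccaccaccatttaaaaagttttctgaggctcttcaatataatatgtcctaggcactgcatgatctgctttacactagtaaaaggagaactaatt

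The match in *Fcgr1* lay 61 to 55 bases before the start, and those in *Lyz2* and *Lyz1* both lay 100 to 94 bases before it. All 3 were on the strand opposite to the gene. *Mertk* and *Adgre4* held no match in this window. Of 32851 promoter windows of the same length, 1861 (5.66%) held the motif. A match describes letters only, and no binding was measured.

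Levels are given as CPM, which are counts scaled to a common library total with TMM factors, as mean ± SD of 3 libraries. Between genes, they were compared per kilobase of exon. In Veh M[0], *Lyz2* stood far above the others at 8840 ± 444 CPM per kb. *Adgre1* (876 ± 68.3 CPM per kb) and *Csf1r* (687 ± 11.8 CPM per kb) followed, then *Cd14* (353 ± 17.1 CPM per kb) and *Spi1* (140 ± 8.27 CPM per kb). The lowest levels per kb were those of *Fcgr1* at 70.1 ± 7.34, *Maf* at 63.3 ± 3.26, *Mertk* at 29.1 ± 1.11 and *Adgre4* at 6.42 ± 0.545 CPM per kb. All 9 genes were thus detected in naïve vehicle cells labelled as macrophages. Together they held 2.02% ± 0.0407 of all counts with Veh in M[0], 0.881% ± 0.0505 when HC3 was given and 1.65% ± 0.0742 for RSM (SD, n = 3 libraries per group). In M[IL-4] their share was 1.05% ± 0.0231 with Veh, 0.708% ± 0.0505 under HC3 and 1.09% ± 0.0999 under RSM. *Lyz2* weighed most in these sums. Its own mean share in M[0] was 1.16% with Veh, 0.520% with HC3 and 1.21% with RSM. In M[IL-4] that share was 0.434%, 0.284% and 0.585% in the same order.

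**Figure D1:**
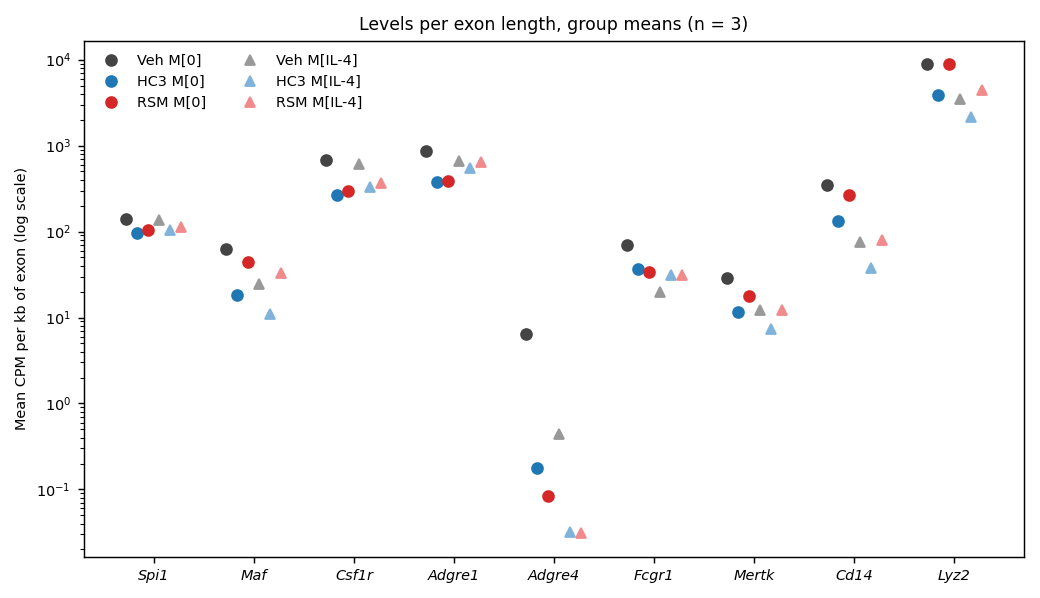
Mean CPM per kilobase of exon (log axis, n = 3 libraries per point) of the 9 genes in the 6 groups; circles are M[0] and triangles M[IL-4]. *Lyz2* was highest in every group and *Adgre4* lowest in every group.

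Markers of other cells that marrow cultures can hold were summed per library. The 8 stromal markers in M[0] came to 548 to 939 CPM for Veh, 1279 to 1769 CPM for HC3 and 1052 to 1515 CPM for RSM, without overlap between Veh and either inhibitor. In M[IL-4] they were at 296 to 698, 589 to 1108 and 551 to 1099 CPM, with overlap. Members did not move as one, with *Col3a1* called higher in all 4 inhibitor comparisons and *Dcn* called lower with RSM in both polarizations, and *Lum* was at 0 in 5 of the 6 groups. The 4 monocyte markers were at 12.7 to 15.9, 8.29 to 12.6 and 5.49 to 6.64 CPM in M[0] and at 23.9 to 33.1, 7.19 to 9.31 and 4.15 to 5.09 CPM in M[IL-4] with Veh, HC3 and RSM. The 2 tested went opposite ways with HC3. *Ccr2* was called lower in all 4 inhibitor comparisons, while *Plac8* was called higher with HC3 in M[0] (log2 fold change 1.44) and M[IL-4] (1.11). The 6 osteoclast markers were at 30.5 to 37.8 CPM in M[0], and at 126.7 to 216.5, 53.6 to 65.0 and 33.2 to 35.1 CPM in M[IL-4], with *Calcr* at 0 in all groups. Within the M[0] sum, members moved in opposite directions. With RSM, *Mmp9*, *Ocstamp*, *Acp5* and *Dcstamp* were called lower (background 6.51% of tested genes) and *Ctsk* higher (background 5.05%, list median -2.40). With HC3, *Dcstamp* was called lower (background 6.11%) and *Ctsk* higher (background 5.93%, list median -0.75). In M[IL-4], 2 of 5 tested were called lower with HC3 (background 5.53%) and 4 with RSM (background 6.00%). Their part in the values of the 9 genes was not tested. Sums were at most 3.25 CPM for 6 dendritic cell markers and 1.99 CPM for 9 neutrophil markers, where *S100a9* and *Elane* were at 0 throughout. They were at most 2.05 CPM for 3 mast cell markers, and at most 0.699 CPM for each of the B cell, T cell and erythroid lists.

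Each inhibitor was first compared with Veh. A gene passed the test at an FDR under 0.05 in edgeR, and was called when its log2 fold change also reached 1 or -1. With HC3 in M[0], 9 of 9 genes fell (background 21.5% of tested genes lower) and 7 were called lower (background 6.11%), the exceptions being *Spi1* and *Fcgr1*. With RSM in M[0], 8 fell (background 20.7%), *Lyz2* being the exception, and 4 were called lower (background 6.51%), namely *Csf1r*, *Adgre1*, *Adgre4* and *Fcgr1*. The median log2 fold change of the 9 was -1.33 with HC3 and -0.71 with RSM, against 0.023 and 0.0053 over all tested genes. In these bulk libraries, fewer cells that express a gene and less of its RNA per cell cannot be told apart.

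In M[IL-4], HC3 lowered 8 of the 9 genes (background 19.9%) and raised *Fcgr1* (background 18.9% higher), and 3 were called lower (background 5.53%), namely *Maf*, *Adgre4* and *Cd14*. RSM in M[IL-4] divided the set evenly, with *Spi1*, *Csf1r* and *Adgre4* lower (background 18.5%), *Fcgr1*, *Maf* and *Lyz2* higher (background 20.1%), and *Adgre1*, *Mertk* and *Cd14* not passing the test. Of these only *Adgre4* was called (background 6.00% lower). The median of the 9 was -0.73 with HC3 and -0.013 with RSM, against 0.0063 and 0.019 over all tested genes. The M[0] comparisons share their Veh libraries, as do those in M[IL-4], so they are not independent of each other.

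**Figure D2:**
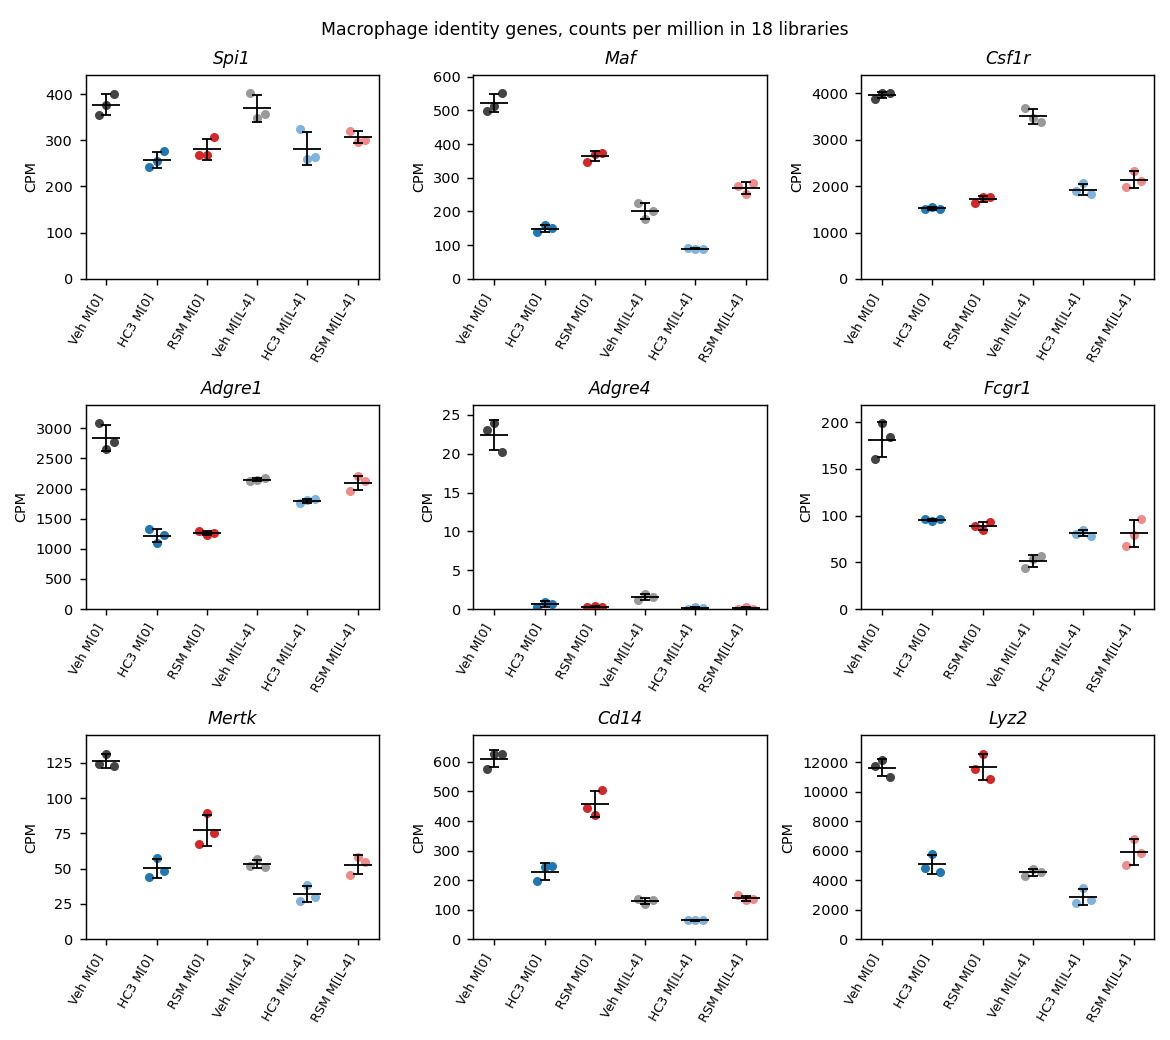
CPM of each gene in the 18 libraries, by group; points are libraries, and the black bar and whiskers are the mean ± SD (n = 3), with each vertical axis starting at 0. The 3 Veh M[0] libraries were the highest of the 18 for *Csf1r*, *Adgre1*, *Adgre4*, *Fcgr1*, *Mertk*, *Cd14* and *Maf*, but not for *Spi1* or *Lyz2*.

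**Figure D3:**
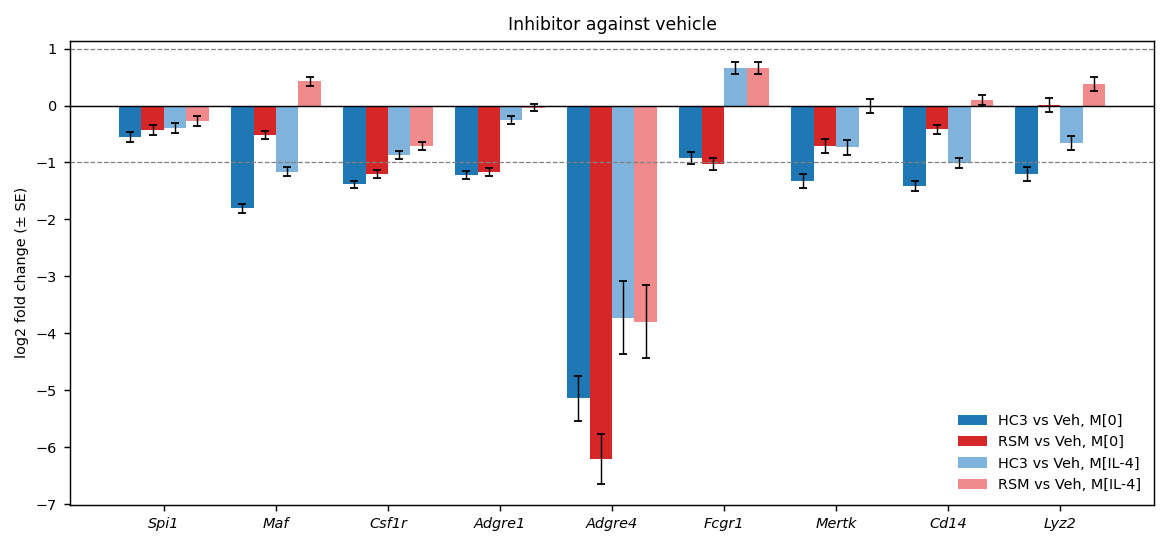
Log2 fold change (± SE) of each gene with HC3 or RSM against Veh in M[0] and M[IL-4]; dashed lines mark 1 and -1. In M[0] the bars point down apart from *Lyz2* with RSM, while in M[IL-4] those of *Fcgr1* point up with both inhibitors.

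*Spi1* (ENSMUSG00000002111, chr2:91082390-91115756, plus strand) encodes PU.1, and its fall with HC3 in M[0] was the smallest of the 9. In M[0], *Spi1* was at 355, 377 and 399.5 CPM with Veh, 242, 255 and 277 CPM with HC3 and 268, 268 and 306 CPM with RSM. In M[IL-4], *Spi1* was at 402, 348 and 357 CPM with Veh, 324, 259 and 264 CPM with HC3 and 321, 297 and 301 CPM with RSM. The Veh libraries lay above those of either inhibitor within each polarization, without overlap. The log2 fold change was -0.55 ± 0.087 (SE, FDR 4.32e-05) with HC3 and -0.43 ± 0.087 (SE, FDR 0.000560) with RSM in M[0]. In M[IL-4], it was -0.39 ± 0.087 (SE, FDR 0.00147) with HC3 and -0.27 ± 0.086 (SE, FDR 0.0191) with RSM, and the last no longer passed when counts were scaled by library size only (FDR 0.0757) or without Veh replicate 1, RSM replicate 2 or RSM replicate 3 of M[IL-4]. With Veh, *Spi1* in M[IL-4] differed from M[0] by a log2 fold change of -0.031 (FDR 0.821, 95% interval -0.21 to 0.15).

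*Maf* (ENSMUSG00000055435, chr8:115682942-115707794, minus strand) encodes c-MAF, a basic leucine zipper factor of mature and resident macrophages. Its levels with HC3 and with RSM differed. In M[0], *Maf* was at 499, 514 and 552 CPM with Veh, 139, 159.7 and 149.6 CPM with HC3 and 348, 371 and 375 CPM with RSM. In M[IL-4], *Maf* was at 225, 176 and 202 CPM with Veh, 92.5, 89.7 and 87.7 CPM with HC3 and 274, 252 and 284 CPM with RSM. The 6 group means ran from Veh M[0] through RSM M[0], RSM M[IL-4], Veh M[IL-4] and HC3 M[0] to HC3 M[IL-4], and no 2 neighbours in this order overlapped. HC3 lowered *Maf*, with a log2 fold change of -1.80 ± 0.080 (SE, FDR 2.25e-12) in M[0] and -1.16 ± 0.080 (SE, FDR 1.63e-09) in M[IL-4]. RSM lowered it in M[0], at -0.52 ± 0.077 (SE, FDR 2.53e-05), and raised it in M[IL-4], at 0.42 ± 0.078 (SE, FDR 0.000230). Of the exon bases of *Maf*, 5.34% overlap *Gm15655* on the opposite strand, and counting was not stated to use strand.

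Beside these, 20 further transcription factors of macrophages were tested. With HC3 in M[0], 1 was called higher (background 5.93% of tested genes) and 2 lower (background 6.11%), and with RSM 2 higher (background 5.05%) and 1 lower (background 6.51%). In M[IL-4], HC3 had 2 called higher (background 4.72%) and 1 lower (background 5.53%), and RSM 2 higher (background 5.05%) and 0 lower (background 6.00%). List medians in these 4 comparisons ran from -0.43 to 0.0051. *Klf4*, a Krüppel-like factor of monocyte differentiation, was called higher in all 4 comparisons, going in M[0] from 11.8 ± 1.31 CPM with Veh to 84.7 ± 6.84 under HC3 and 94.5 ± 5.99 under RSM (log2 fold changes 2.84 ± 0.093 and 3.00 ± 0.093). *Mef2c* fell in all 4, by log2 fold changes from -0.69 with RSM in M[IL-4] to -1.46 with HC3 in M[0].

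*Csf1r* (ENSMUSG00000024621, chr18:61100598-61132149, plus strand) encodes the receptor for CSF-1 and IL-34. In M[0], *Csf1r* was at 3888, 4007 and 4005 CPM with Veh, 1507, 1545 and 1504 CPM with HC3 and 1639, 1763 and 1758 CPM with RSM. In M[IL-4], *Csf1r* was at 3687, 3462 and 3374 CPM with Veh, 1886, 2058 and 1833 CPM with HC3 and 1980, 2332 and 2113 CPM with RSM. Every inhibitor library lay below every Veh library, and the RSM and HC3 libraries overlapped in M[IL-4] but not in M[0]. In M[0] the log2 fold change was -1.39 ± 0.066 (SE, FDR 6.42e-12) with HC3 and -1.21 ± 0.066 (SE, FDR 4.40e-11) with RSM, so that levels were 2.61 and 2.31 times lower than with Veh. The falls in M[IL-4] were smaller, at -0.87 ± 0.065 (SE, FDR 5.02e-09) with HC3 and -0.71 ± 0.065 (SE, FDR 5.63e-08) with RSM. IL-4 with Veh lowered it slightly, with a log2 fold change of -0.18 ± 0.065 (SE, FDR 0.0448) that failed the test under 7 of the alternative settings, with FDR up to 0.151. Of its exon bases, 15.1% overlap *Hmgxb3* on the opposite strand.

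*Csf1*, the gene of the CSF-1 ligand, went in the direction opposite to its receptor and was called higher in all 4 inhibitor comparisons, from 129 ± 36.7 CPM with Veh in M[0] to 404 ± 71.9 under HC3 (log2 fold change 1.65 ± 0.28, FDR 8.56e-05) and 317 ± 61.1 under RSM (1.30 ± 0.28, FDR 0.000859). In M[IL-4], *Csf1* was at 127 ± 50.4 CPM with Veh, 336 ± 65.5 under HC3 and 272 ± 71.3 under RSM. *Il34* stood at 2.31 ± 0.536 CPM in Veh M[0] and was called lower with RSM in M[0] (-1.80 ± 0.48, FDR 0.00584). *Kit*, the receptor of stem cell factor, rose with HC3 from 3.68 ± 1.03 to 14.1 ± 3.92 CPM in M[0] and was at 2.81 ± 0.342 under RSM (FDR 0.333). Of the 9 ligands and receptors of the colony-stimulating and related factors, 6 were tested, and 2, 1, 2 and 1 were called higher with HC3 and RSM in M[0] and with HC3 and RSM in M[IL-4], with list medians of -0.23, -0.39, -0.26 and -0.26. The share of all tested genes called higher was 5.93%, 5.05%, 4.72% and 5.05% in the same order. *Il34* was the 1 member called lower, with RSM in M[0] (background 6.51%). The summed stromal markers were also higher in M[0], at 548 to 939 CPM with Veh, 1279 to 1769 with HC3 and 1052 to 1515 with RSM. Of the 7 tested, 2 were called higher with HC3 (background 5.93%). With RSM, 2 were called higher (background 5.05%) and 1 lower (background 6.51%). The collagen gene *Col1a1* in M[0] was at 271 ± 66.0 CPM for Veh, 611 ± 104 for HC3 and 593 ± 94.3 for RSM, while *Dcn*, the gene of decorin, was at 8.50 ± 2.06, 7.91 ± 1.38 and 2.99 ± 1.06 CPM and was called lower with RSM (-1.51, FDR 7.44e-05). The part of such cells in the *Csf1* values was not tested.

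*Adgre1* (ENSMUSG00000004730, chr17:57358691-57483527, plus strand) encodes F4/80, the classical surface marker of mouse macrophages. In M[0], *Adgre1* was at 3083, 2653 and 2777 CPM with Veh, 1321, 1102 and 1232 CPM with HC3 and 1297, 1234 and 1268 CPM with RSM. In M[IL-4], *Adgre1* was at 2119, 2145 and 2177 CPM with Veh, 1757, 1813 and 1824 CPM with HC3 and 1967, 2202 and 2120 CPM with RSM. In M[0] the Veh libraries were well apart from both inhibitors, which overlapped, whereas in M[IL-4] the RSM libraries spanned the Veh values and the HC3 libraries lay just below them. The log2 fold change in M[0] was -1.22 ± 0.070 (SE, FDR 8.09e-11) with HC3 and -1.16 ± 0.070 (SE, FDR 1.74e-10) with RSM. In M[IL-4], it was -0.26 ± 0.069 (SE, FDR 0.00621) with HC3 and -0.034 ± 0.069 under RSM (FDR 0.735, 95% interval -0.18 to 0.11).

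*Adgre4* (ENSMUSG00000032915, chr17:55749984-55853662, plus strand) encodes a related EGF-domain adhesion receptor of myeloid cells, and it had the largest falls of the 9 in all 4 inhibitor comparisons. In M[0], *Adgre4* was at 23.1, 23.9 and 20.3 CPM with Veh, 0.268, 0.973 and 0.631 CPM with HC3 and 0.213, 0.366 and 0.308 CPM with RSM. The Veh M[0] libraries held 1201 counts of the gene in sum, against 36 with HC3 and 17 with RSM. In M[IL-4], *Adgre4* was at 1.18, 1.92 and 1.57 CPM with Veh, 0, 0.221 and 0.110 CPM with HC3 and 0, 0.323 and 0 CPM with RSM, or 83, 6 and 6 summed counts. Only the 3 Veh M[0] libraries were above 1.92 CPM. Fitted log2 fold changes were -5.14 ± 0.39 (SE, FDR 3.47e-09) with HC3 and -6.21 ± 0.43 (SE, FDR 1.25e-09) with RSM in M[0], and -3.73 ± 0.64 (SE, FDR 0.000123) and -3.80 ± 0.64 (SE, FDR 9.17e-05) in M[IL-4]. IL-4 with Veh also lowered it, at -3.85 ± 0.35 (SE, FDR 8.68e-08). Each inhibitor group rests on few counts, with 3 counts in a library being 0.154 to 0.172 CPM, so the size of these falls is uncertain. All 6 counts of RSM M[IL-4] came from replicate 2, without which the RSM value in M[IL-4] was -7.85. The ranges of neighbouring groups overlapped from HC3 M[0] down through RSM M[0], HC3 M[IL-4] and RSM M[IL-4].

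Of 11 other adhesion G protein-coupled receptors, 7 were tested and none was called lower in an inhibitor comparison (background 5.53 to 6.51%). HC3 and RSM in M[0] had 1 and 0 called higher, and HC3 and RSM in M[IL-4] had 2 and 1, with list medians of 0.47, -0.11, 0.062 and -0.023 in the same order. The share of all tested genes called higher was 5.93%, 5.05%, 4.72% and 5.05%. *Adgrl2*, a latrophilin, rose in M[0] from 101 ± 5.88 CPM to 217 ± 10.9 under HC3 and 170.4 ± 15.9 under RSM. After IL-4, the rise was from 63.7 ± 5.64 CPM to 199 ± 9.51 and 158 ± 7.09 (log2 fold changes 1.65 ± 0.079 and 1.31 ± 0.079). *Adgrf5* was called higher with HC3 in M[IL-4] (1.02 ± 0.37, FDR 0.0357) and just missed the fold threshold in M[0] (0.98 ± 0.35, FDR 0.0302).

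*Fcgr1* (ENSMUSG00000015947, chr3:96282909-96293969, minus strand) encodes CD64, the high-affinity receptor for IgG, and its direction with the inhibitors turned with polarization. In M[0], *Fcgr1* was at 161, 199 and 184 CPM with Veh, 96.0, 94.1 and 96.3 CPM with HC3 and 88.6, 84.4 and 93.3 CPM with RSM. In M[IL-4], *Fcgr1* was at 43.9, 53.7 and 56.7 CPM with Veh, 80.3, 84.6 and 78.4 CPM with HC3 and 67.6, 79.7 and 96.1 CPM with RSM. The Veh libraries were the highest in M[0] and the lowest in M[IL-4], in both cases without overlap with either inhibitor. In M[0] the log2 fold change was -0.93 ± 0.11 (SE, FDR 9.54e-07) with HC3 and -1.03 ± 0.11 (SE, FDR 2.69e-07) with RSM. In M[IL-4], it was 0.66 ± 0.11 (SE, FDR 8.74e-05) with HC3 and 0.66 ± 0.11 (SE, FDR 8.25e-05) with RSM. Both M[0] values sit near the fold threshold, and the RSM call was lost at -0.97 with library-size scaling and at -0.96 without Veh M[0] replicate 2, and HC3 gained a call at -1.01 without Veh M[0] replicate 1. The 12 inhibitor libraries lay between 67.6 and 96.3 CPM whichever the polarization, while Veh went from 181 ± 19.0 to 51.4 ± 6.66 CPM.

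Other genes of IgG binding were followed alongside. All 6 that were listed were tested, and 4 were called lower with HC3 in M[0] (list median -1.08), 1 with RSM in M[0] (-0.62), 1 with HC3 in M[IL-4] (-0.80) and 0 with RSM in M[IL-4] (-0.22). The share of all tested genes called lower was 6.11%, 6.51%, 5.53% and 6.00% in the same order. *Fcgrt*, the neonatal Fc receptor, went from 107 ± 9.29 CPM in Veh M[0] to 40.5 ± 2.31 under HC3 and 37.9 ± 1.32 under RSM. *Fcgr4*, an activating Fc gamma receptor, fell with HC3 in M[0] from 42.9 ± 3.84 to 15.6 ± 3.12 CPM and in M[IL-4] from 27.3 ± 2.52 to 13.1 ± 1.07 CPM. *Trim21*, a cytosolic antibody receptor, fell in all 4 comparisons, by log2 fold changes from -0.34 to -1.09. *Fcgr2b*, the inhibitory Fc gamma receptor, rose with RSM in both polarizations, from 59.0 ± 9.31 to 99.0 ± 8.35 CPM in M[0] (log2 fold change 0.75, FDR 0.000195) and from 327 ± 34.1 to 629 ± 69.3 CPM in M[IL-4] (0.95, FDR 9.94e-06). With HC3, *Fcgr2b* was lower in M[0], at 46.1 ± 9.94 CPM (log2 fold change -0.35, FDR 0.0455), and in M[IL-4] it was at 331 ± 30.2 CPM (FDR 0.925). No other gene of the list passed higher in an inhibitor comparison.

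*Mertk* (ENSMUSG00000014361, chr2:128698956-128802894, plus strand) encodes a TAM receptor tyrosine kinase that binds apoptotic cells through Gas6 and protein S. In M[0], *Mertk* was at 124, 132 and 123 CPM with Veh, 44.5, 57.5 and 48.6 CPM with HC3 and 67.4, 89.3 and 75.0 CPM with RSM. In M[IL-4], *Mertk* was at 51.8, 56.7 and 51.5 CPM with Veh, 27.2, 38.6 and 30.3 CPM with HC3 and 45.3, 58.6 and 54.7 CPM with RSM. HC3 gave the lowest libraries within each polarization, and RSM lay between Veh and HC3 in M[0] and overlapped Veh in M[IL-4]. With HC3, the log2 fold change was -1.33 ± 0.13 (SE, FDR 7.01e-08) in M[0] and -0.73 ± 0.13 (SE, FDR 0.000156) in M[IL-4]. With RSM, it was -0.71 ± 0.12 (SE, FDR 0.000120) in M[0] and -0.013 ± 0.13 in M[IL-4] (FDR 0.948, 95% interval -0.28 to 0.25). IL-4 with Veh lowered *Mertk*, at -1.24 ± 0.12 (SE, FDR 3.46e-07).

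Of 21 other genes of apoptotic cell recognition and uptake, 19 were tested. With HC3 in M[0], 7 were called lower (background 6.11%) and 2 higher (background 5.93%), and with RSM 6 lower (background 6.51%) and 1 higher (background 5.05%). In M[IL-4], 7 were called lower with HC3 (background 5.53%) and 5 with RSM (background 6.00%), and none higher (background 4.72% and 5.05%). List medians in these 4 comparisons were -0.75, -0.78, -0.43 and -0.38. The 3 chains of C1q, the bridging opsonin of the classical complement pathway, were called lower in all 4 comparisons. *C1qb* fell in M[0] from 1761 ± 221 CPM to 252 ± 16.0 under HC3 (log2 fold change -2.80 ± 0.10) and 408 ± 21.3 under RSM (-2.11 ± 0.10). *C1qa* went from 542 ± 123 to 40.1 ± 10.2 and 104 ± 9.36 CPM, and *C1qc* from 1195 ± 209 to 213 ± 19.1 and 361 ± 25.1 CPM. In M[IL-4] the falls of *C1qb* were -2.66 ± 0.10 under HC3 and -1.79 ± 0.099 under RSM.

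*Cd14* (ENSMUSG00000051439, chr18:36725067-36726798, minus strand) encodes the protein that passes LPS to TLR4 and MD-2. In M[0], *Cd14* was at 577, 629 and 627 CPM with Veh, 198, 244 and 247 CPM with HC3 and 444, 421 and 505 CPM with RSM. In M[IL-4], *Cd14* was at 138, 119 and 134 CPM with Veh, 66.1, 63.6 and 64.5 CPM with HC3 and 149, 133 and 135 CPM with RSM. In M[0] the 3 treatments were ordered Veh, RSM and HC3 without overlap, and in M[IL-4] RSM overlapped Veh while HC3 lay below both. The log2 fold change in M[0] was -1.41 ± 0.086 (SE, FDR 1.78e-10) with HC3 and -0.42 ± 0.084 (SE, FDR 0.000531) with RSM. In M[IL-4], it was -1.01 ± 0.088 (SE, FDR 3.61e-08) with HC3 and 0.097 ± 0.086 under RSM (FDR 0.407, 95% interval -0.084 to 0.28). The HC3 value in M[IL-4] passed the test under all alternatives but sits at the fold threshold, and its call was lost in 5 of them, at -0.99 in a fit of the compared groups, at -0.96 with library-size scaling, and without Veh replicate 1, Veh replicate 3 or HC3 replicate 2 of M[IL-4].

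Among 14 other genes of LPS and Toll-like receptor sensing, 13 were tested. With HC3 and RSM in M[0], 3 and 3 were called lower (background 6.11% and 6.51%). In M[IL-4], the counts were 2 and 2 (background 5.53% and 6.00%). In each comparison 1 was called higher (background 4.72 to 5.93%), with list medians from -0.50 to -0.10. *Tlr4* and *Ly96*, the genes of TLR4 and MD-2, were called in none. *Tlr4* passed lower with HC3 in M[0] (log2 fold change -0.57, FDR 0.000202) and higher with RSM in M[IL-4] (0.48, FDR 0.00106). *Tlr1*, a partner of TLR2, fell in M[0] from 57.5 ± 6.03 CPM to 13.4 ± 1.57 under HC3 and 18.1 ± 0.935 under RSM, and in M[IL-4] from 95.6 ± 17.5 to 28.1 ± 2.39 and 36.8 ± 1.80. *Ly86*, the gene of MD-1, fell in all 4 comparisons, by log2 fold changes from -0.87 to -2.05. The gene called higher was *Ticam2*, which encodes the TLR4 adaptor TRAM, at 24.4 ± 0.743 CPM in Veh M[0], 68.7 ± 6.91 under HC3 and 75.0 ± 8.24 under RSM (log2 fold changes 1.49 ± 0.13 and 1.62 ± 0.13).

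*Lyz2* (ENSMUSG00000069516, chr10:117277331-117282321, minus strand) encodes lysozyme M, which cleaves bacterial cell walls, and it held the most counts of the 9 in every group. In M[0], *Lyz2* was at 11760.2, 12143 and 10996 CPM with Veh, 4853, 5810 and 4548 CPM with HC3 and 11522, 12586 and 10873 CPM with RSM. In M[IL-4], *Lyz2* was at 4283, 4750 and 4559 CPM with Veh, 2481, 3484 and 2644 CPM with HC3 and 5026, 6808 and 5875 CPM with RSM. The Veh and RSM libraries overlapped in M[0], and every RSM library lay above every Veh library in M[IL-4]. HC3 was below Veh in both. With HC3 the log2 fold change was -1.20 ± 0.12 (SE, FDR 2.39e-07) in M[0] and -0.66 ± 0.12 (SE, FDR 0.000275) in M[IL-4]. With RSM, it was 0.0034 ± 0.12 in M[0] (FDR 0.986, 95% interval -0.25 to 0.26) and 0.38 ± 0.12 (SE, FDR 0.0185) in M[IL-4], the last of which did not pass without Veh M[IL-4] replicate 1 or RSM M[IL-4] replicate 2. The paralog *Lyz1* (ENSMUSG00000069515, chr10:117287797-117292868, minus strand) has a transcript 95.8% identical to that of *Lyz2* over 1264 bases, and was at 3.06 ± 0.339 CPM in Veh M[0] and 1.30 ± 0.320 in Veh M[IL-4]. The study's methods kept read pairs by a mapping quality score of 40, so reads that align equally well to both genes could have been dropped. No alignment of the pair over 100 bases or more reached 98% identity as a whole, and stretches within an alignment were not examined.

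A list of 20 other macrophage genes, which includes *Lyz1*, gave 18 tested. HC3 in M[0] had 7 called lower (background 6.11%) and 0 higher (list median -0.71), and RSM in M[0] 5 lower (background 6.51%) and 2 higher (background 5.05%, list median -0.60). In M[IL-4], HC3 had 4 called lower (background 5.53%) and 0 higher (list median -0.37), and RSM 3 lower (background 6.00%) and 1 higher (background 5.05%, list median -0.16). *Aif1*, the gene of the actin-bundling protein IBA1, fell from 28.1 ± 2.01 CPM in Veh M[0] to 3.05 ± 0.541 under HC3 and 3.02 ± 0.677 under RSM, and from 11.5 ± 0.953 to 1.78 ± 0.107 and 1.76 ± 0.532 in M[IL-4]. *Itgam*, the gene of CD11b, fell with HC3 in M[0] from 249 ± 11.6 to 64.8 ± 8.39 CPM and was at 157 ± 16.1 under RSM (FDR 7.77e-05). *Trem2*, a lipid-sensing receptor, fell from 1165 ± 90.9 CPM in Veh M[0] to 771 ± 35.7 under HC3 and 547 ± 26.5 under RSM, and was called with RSM. Those called higher with RSM in M[0] were *Cd33*, from 18.2 ± 4.14 to 42.6 ± 6.03 CPM, and *Cd200r1*, from 95.1 ± 7.29 to 236 ± 17.2 CPM. *Cd33* was also the 1 called higher with RSM in M[IL-4]. In that comparison, 7 of the 18 passed the test higher (background 20.1%) and 8 lower (background 18.5%). Over the 7 lists of related genes, 89 of 100 genes were tested. With HC3 in M[0], 23 were called lower (25.8%, background 6.11%) and 7 higher (7.87%, background 5.93%). With RSM in M[0], 17 were called lower (19.1%, background 6.51%) and 7 higher (7.87%, background 5.05%). In M[IL-4], HC3 had 15 lower (16.9%, background 5.53%) and 7 higher (7.87%, background 4.72%), and RSM 10 lower (11.2%, background 6.00%) and 6 higher (6.74%, background 5.05%).

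**Figure D4:**
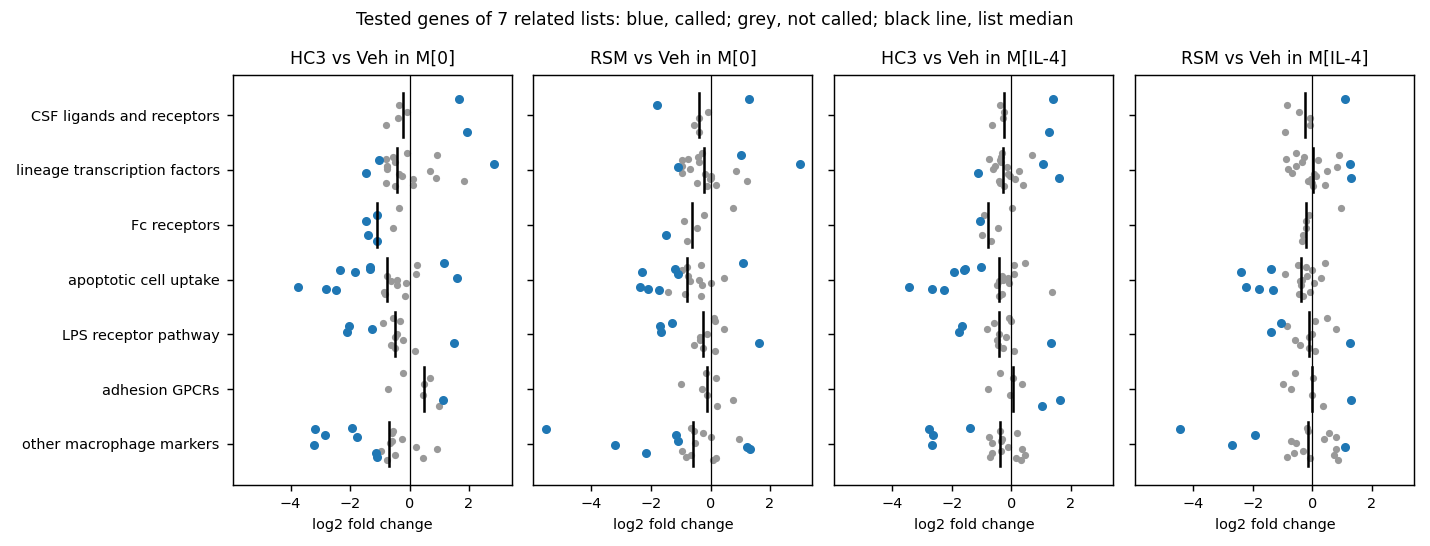
Log2 fold changes of the tested genes of 7 lists of related genes in the 4 inhibitor comparisons; each point is a gene, blue when called and grey when not, and black lines are list medians. Points called lower outnumber those called higher in each panel, 23 against 7 in the first.

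IL-4 itself was then compared with M[0] within each treatment. With Veh, 8 of the 9 genes fell (background 14.9% of tested genes lower), *Spi1* being the exception, and 6 were called lower (background 3.83%). Called genes were *Adgre4*, *Cd14*, *Fcgr1*, *Maf*, *Lyz2* and *Mertk*. The log2 fold change was -2.23 ± 0.089 (SE, FDR 1.35e-12) for *Cd14*, -1.82 ± 0.11 (SE, FDR 4.55e-10) for *Fcgr1* and -1.36 ± 0.12 (SE, FDR 9.85e-08) for *Lyz2*. It was -1.38 ± 0.079 (SE, FDR 2.19e-10) for *Maf* and -0.40 ± 0.069 (SE, FDR 0.000187) for *Adgre1*, which was not called. The median over the 9 was -1.36, against -0.0078 over all tested genes.

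Under HC3, IL-4 lowered 5 genes (background 7.48%) and raised *Csf1r* and *Adgre1* (background 7.22% higher), and 2 were called lower (background 2.14%). These were *Cd14*, at -1.83 ± 0.089 (SE, FDR 4.21e-11), and *Adgre4*, at -2.43 ± 0.74 (SE, FDR 0.0339), whose call was lost in a fit of the compared groups and without HC3 M[0] replicate 2 or 3 or HC3 M[IL-4] replicate 1 or 3. Under RSM, IL-4 lowered 4 (background 6.74%) and raised the same *Csf1r* and *Adgre1* (background 8.79% higher), with *Cd14* called lower (background 1.81%) at -1.71 ± 0.087 (SE, FDR 5.17e-11). The rise of *Adgre1* from M[0] to M[IL-4] was 0.56 ± 0.069 (SE, FDR 1.09e-05) with HC3 and 0.73 ± 0.069 (SE, FDR 3.08e-07) with RSM, and that of *Csf1r* 0.34 ± 0.065 (SE, FDR 0.00106) and 0.32 ± 0.065 (SE, FDR 0.00176). *Fcgr1*, by contrast, had -0.24 ± 0.11 under HC3 (95% interval -0.46 to -0.011) and -0.13 ± 0.11 under RSM (95% interval -0.35 to 0.095), neither passing the test. Only *Cd14* was called lower by IL-4 in all 3 treatments.

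**Figure D5:**
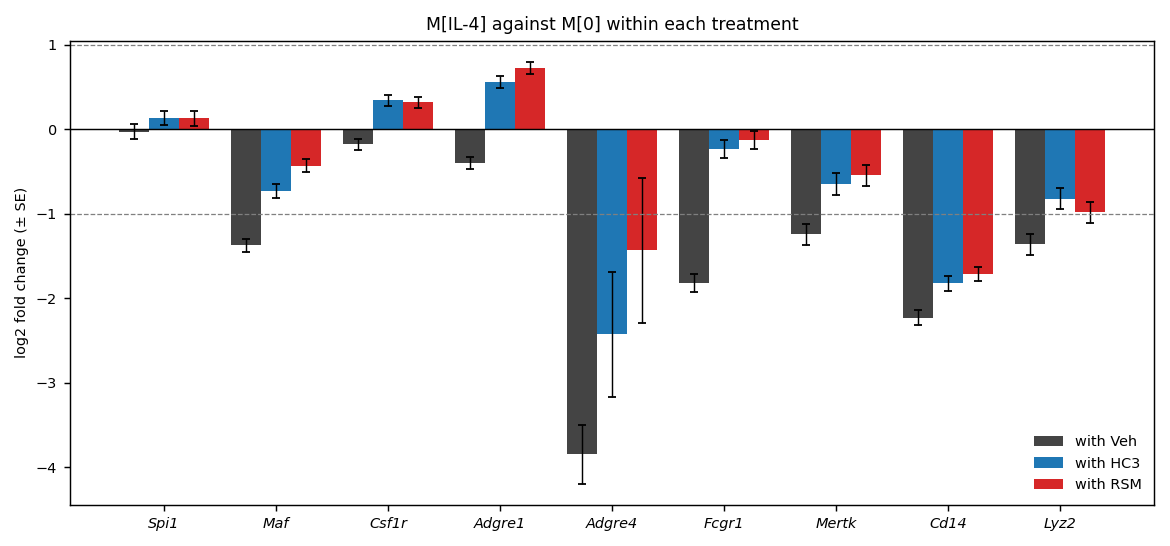
Log2 fold change (± SE) of each gene in M[IL-4] against M[0] with Veh, HC3 and RSM; dashed lines mark 1 and -1. The bars of *Cd14* and *Adgre4* pass -1 in all 3 treatments, though *Adgre4* under RSM did not pass the edgeR test (FDR 0.318). The bars of *Adgre1* and *Csf1r* point down with Veh and up with either inhibitor.

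Whether the IL-4 response differed from that with Veh was tested as an interaction, in which a positive value is a more positive inhibitor effect in M[IL-4] than in M[0]. The HC3 interaction passed for 4 genes, all higher (background 3.08%), with 1 called higher (background 0.481%). The RSM interaction passed for 6, all higher (background 5.05%), with 2 called (background 1.22%). *Fcgr1* had the largest values that passed, 1.58 ± 0.15 (SE, FDR 7.81e-06) for HC3 and 1.69 ± 0.15 (SE, FDR 1.22e-06) for RSM. *Adgre1* followed with 0.96 ± 0.098 (SE, FDR 1.17e-05) and 1.13 ± 0.098 (SE, FDR 9.20e-07), the former called without HC3 M[0] replicate 1 or Veh M[0] replicate 2. *Maf* had 0.64 ± 0.11 (SE, FDR 0.00155) and 0.94 ± 0.11 (SE, FDR 2.08e-05), and *Csf1r* 0.52 ± 0.092 (SE, FDR 0.00174) and 0.49 ± 0.092 (SE, FDR 0.00166). For RSM, *Mertk* had 0.69 ± 0.18 (SE, FDR 0.0159) and *Cd14* 0.52 ± 0.12 (SE, FDR 0.00952), the *Mertk* value just failing without RSM M[0] replicate 1.

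The HC3 interaction of *Mertk* (0.60 ± 0.18, FDR 0.0544), *Lyz2* (0.54 ± 0.17, FDR 0.0718) and *Cd14* (0.41 ± 0.12, FDR 0.0555) did not pass. With a replicate block within polarization all 3 passed, at FDR 0.000113, 1.95e-05 and 0.000789, which brings the count to 7 of 9 for HC3. The RSM interaction of *Lyz2* likewise went from FDR 0.206 to 0.000901, also giving 7 of 9. *Spi1* had 0.16 for HC3 (95% interval -0.095 to 0.42) and 0.16 for RSM (95% interval -0.098 to 0.42) and did not pass with or without the block. *Adgre4*, at 1.42 ± 1.07 and 2.41 ± 1.14, rests on 6 counts in each inhibitor group of M[IL-4] and did not pass in edgeR, while DESeq2 gave 2.35 for RSM (FDR 0.0257).

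HC3 and RSM were also set against each other, at 250 and 5 µM, so compound and dose cannot be told apart. In M[0], 4 genes were lower with HC3 (background 7.43%) and 2 were called (background 1.44%), *Maf* at -1.29 ± 0.079 (SE, FDR 3.12e-09) and *Lyz2* at -1.20 ± 0.12 (SE, FDR 1.63e-06). *Cd14* fell short of a call at -0.99 ± 0.085 (SE, FDR 1.96e-07) and was called under 8 alternatives, and *Mertk* was at -0.62 ± 0.12 (SE, FDR 0.00201). In M[IL-4], 5 were lower with HC3 (background 8.03%) and 3 were called (background 1.59%), *Maf* at -1.59 ± 0.080 (SE, FDR 1.98e-10), *Cd14* at -1.11 ± 0.088 (SE, FDR 7.10e-08) and *Lyz2* at -1.04 ± 0.12 (SE, FDR 9.33e-06). The *Lyz2* call was lost without HC3 M[IL-4] replicate 1 or 3, or without RSM M[IL-4] replicate 2, the last leaving -0.92. No gene of the 9 was higher with HC3 than with RSM at the test's threshold.

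For *Adgre1* in M[0] and for *Fcgr1* the interval of the difference included 0. The difference of HC3 from RSM in M[0] was -0.056 for *Adgre1* (95% interval -0.20 to 0.089) and 0.10 for *Fcgr1* (-0.12 to 0.33), and in M[IL-4] it was -0.00083 for *Fcgr1* (-0.23 to 0.22). *Adgre4* could not be told apart between them, at 1.07 in M[0] with an interval from -0.19 to 2.32, and in M[IL-4] both groups held 6 counts. *Csf1r* at -0.18 (FDR 0.0766) and *Spi1* at -0.12 (FDR 0.418) did not pass in M[0], but did with the replicate block within polarization (FDR 0.00495 and 0.0468). In M[IL-4] the same 2 genes went from FDR 0.142 and 0.444 to 0.0166 and 0.0425. *Adgre1* in M[IL-4], at -0.22 ± 0.069 (SE, FDR 0.0407), failed under 6 alternatives, with FDR up to 0.162.

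Across the 18 libraries, log2 CPM of *Mertk*, *Cd14*, *Maf* and *Lyz2* had Pearson correlations of 0.865 to 0.931 with one another. Those among *Csf1r*, *Spi1* and *Adgre1* were 0.771 to 0.898, while *Adgre1* and *Cd14* had 0.017. The points share treatments and counting depth, and these values describe the set only. Among 8811 genes with a mean of at least 10 CPM, the nearest in pattern was *Tcp11l2* for *Csf1r* (0.981), *Sh2b3* for *Spi1* (0.968), *Nsf* for *Adgre1* (0.968) and *Pik3ap1* for *Adgre4* (0.971). It was *Dgkd* for *Fcgr1* (0.921), *Rassf2* for *Mertk* (0.978), *Stk17b* for *Cd14* (0.972), *Sfxn5* for *Maf* (0.983) and *Lpar6* for *Lyz2* (0.984). *Tlr2*, a Toll-like receptor gene, was the next for *Lyz2* (0.981), and *C3ar1*, a complement receptor gene, the next for *Adgre1* (0.955).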

How the data were processed

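RNA was sequenced from 18 BMDM libraries, 3 in each of 6 groups. Per the study's methods, the authors used fastp for trimming and STAR for alignment to GRCm38, and kept read pairs by a mapping quality score of 40. Picard marked duplicates, which were kept, and featureCounts counted reads on exons. The deposited table holds these raw read counts per Ensembl gene with no normalization. Duplicates and the annotated exon set thus both enter the counts, and whether counting used strand is not given in the sources used here.

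Counts were tested with edgeR 4.0.16 (TMM scaling, quasi-likelihood F-tests) in 1 fit of all 18 libraries, where each group had its own coefficient and replicates were not blocked. A minimum of 10 counts in 2 or more libraries left 14979 of 55385 genes for testing, and FDR is the Benjamini-Hochberg adjusted p over all of these. A call needed an FDR under 0.05 and a log2 fold change reaching 1 or -1. The interactions are the difference between the inhibitor effects in M[IL-4] and M[0]. CPM use the same TMM factors, ± marks the SD of 3 libraries for CPM and the SE for log2 fold changes, and CPM per kb divide by the union of exons in GENCODE vM21. Transcripts were aligned with blastn 2.17.0 to find copies. Loci are on GRCm38, and promoters are RefSeq sequences. The tests were checked on simulated counts first.

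The 9 genes, the 7 lists of related genes and the 9 lists of other cell types were chosen with earlier results of these data known. All 9 genes are named in every comparison, and for each list of related genes up to 3 called genes with the lowest FDR in an inhibitor comparison. A gene that this rule would name is not reported here. *Fcgr2b*, *Tlr4*, *Ly96*, *Cd33*, *Cd200r1* and the named markers of other cell types were chosen after their values were seen. The labels do not tie libraries to separate mice, so p-values measure only the spread between these libraries, which may be technical. No 2 libraries of a group agreed within sampling noise. Same-numbered libraries of a polarization deviated together from their group means (r 0.110 to 0.372 in all 18 pairs). Across polarizations, r was over 0.1 in 12 of 27 same-numbered pairs and in 10 of 54 differently numbered ones. Whether the numbers also pair libraries across polarizations is thus not settled, and a block of each kind was fitted. Alternatives were a replicate block, the same block within polarization, DESeq2 1.42.0, a fit of the compared groups alone, filterByExpr, no count filter, scaling by library size only, and leaving out each library.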

Additional observations from a re-analysis of the deposited data

Results flagged for a closer look

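Inhibitor effects that differed between M[IL-4] and M[0], by the edgeR test of the difference itself, are listed here with the difference on the log2 scale. All were higher in M[IL-4]. *Fcgr1* differed by 1.58 for HC3 (FDR 7.81e-06) and 1.69 for RSM (FDR 1.225e-06), and was lower with both inhibitors in M[0] but higher with both in M[IL-4], in 3 of 3 libraries against the Veh range each time. *Adgre1* differed by 0.96 for HC3 (FDR 1.17e-05) and 1.13 for RSM (FDR 9.20e-07). *Maf* differed by 0.64 for HC3 (FDR 0.00155) and 0.94 for RSM (FDR 2.08e-05), its sign turning between polarizations with RSM. For *Csf1r* the difference was 0.52 for HC3 (FDR 0.00174) and 0.49 for RSM (FDR 0.00166). For RSM it was also 0.69 in *Mertk* (FDR 0.0159) and 0.52 in *Cd14* (FDR 0.00952). Both differences of a gene share the Veh libraries, so they are not independent of each other.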

How the results depend on the processing

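Over the 9 genes and 11 comparisons, 1366 values were recomputed under an alternative. Of these, 1313 kept their direction and their side of the call, 15 lost the call, 17 gained one and 21 turned sign. Values that turned were all from genes that had not passed the test. With RSM in M[0], *Lyz2* ran from -0.071 to 0.043 on the log2 scale when single libraries were left out. With RSM in M[IL-4], scaling by library size only gave 0.015 for *Adgre1* and 0.036 for *Mertk*, and leaving out libraries gave -0.075 to 0.0092 and -0.096 to 0.087. The IL-4 value of *Spi1* with Veh ran from -0.11 to 0.011. For HC3 against RSM in M[IL-4], *Fcgr1* was at 0.0080 with the replicate block, 0.011 with the replicate block within polarization, 0.00049 with only the compared groups, 0.013 with no count filter, 0.0078 with DESeq2 and -0.11 to 0.14 without single libraries. *Adgre4* there ran from -0.85 to 4.13, and its RSM interaction from -1.63 to 3.00.

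The number of genes called with IL-4 under HC3 was 1 with only the compared groups and 1 to 2 without single libraries. Under RSM it was 2 with library size only and 1 to 3 without single libraries, the 3 being without RSM M[IL-4] replicate 2. The HC3 interaction gave 1 to 2. The replicate block changed the number of genes called in none of the 11 comparisons, nor did the block within polarization in the 8 where it was fitted, which leave out the 3 of M[IL-4] against M[0], but genes past the FDR threshold went from 4 to 7 in the HC3 interaction and from 6 to 7 in the RSM interaction, and within polarization from 4 to 6 and from 5 to 7 for HC3 against RSM in M[0] and M[IL-4]. The cause of these changes was not tested. Depth limits *Adgre4* most, with 6 counts over the 3 libraries of either inhibitor in M[IL-4].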
